A study of Mus musculus with 11 samples.

Results

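Matrix metalloproteinases (MMPs) are zinc-dependent endopeptidases that cleave collagens, other matrix proteins and many signalling proteins. Most are made as proenzymes, become active when a propeptide is removed, and are held in check by tissue inhibitors of metalloproteinases (TIMPs). In healing skin they take part in matrix removal and cell migration, and keratinocytes, macrophages, neutrophils and fibroblasts each make a set of their own. The transcripts of 10 MMP genes were followed here in sorted fibroblasts of normal and wounded mouse skin. They were *Mmp2*, *Mmp3*, *Mmp9*, *Mmp10*, *Mmp11*, *Mmp13*, *Mmp14*, *Mmp19*, *Mmp23* and *Mmp27*, chosen by gene symbol from the 23 MMP genes among 47643 genes in the table.

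Live CD45-CD140a+ cells had been sorted from back skin (normal skin, NS) or from excisional wounds 5 days after injury (5dw) of mice aged 9 to 12 weeks. CD140a is PDGFRA, a surface marker of fibroblasts, and CD45 marks immune cells. Cells with CD11b or F4/80, which mark neutrophils and macrophages among others, were also gated out. Act mice (K14-Act) express the activin A gene *INHBA* under the keratin 14 promoter, a promoter active in keratinocytes rather than in fibroblasts, and wild-type (WT) littermates were the controls. All mice were of a mixed background, 50% CD-1 and 50% C57Bl/6. There were 3 libraries each of WT NS, Act NS and WT 5dw and 2 of Act 5dw, numbered 1 and 3. Each library held RNA pooled from 3 mice, and 100 ng of RNA entered an NS library against 200 ng for a 5dw library, so that input and tissue cannot be told apart. Expression was given in RPKM, reads scaled by transcript length and library total, which allows levels to be set side by side between genes. The mapped totals worked out from the RPKM values ran from 18649322 to 39702082 reads per library.

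*Pdgfra* was present in every library, at 49.8 to 65.3 RPKM in NS and 29.6 to 37.3 RPKM in 5dw, while the summed fibroblast markers were 14481 to 20241 RPKM in NS and 25523 to 28984 RPKM in 5dw, with 5 of 14 markers higher and 5 lower in WT wounds (7 and 2 after median-ratio scaling). *Ptprc*, which encodes CD45, stayed between 0.00822 and 0.0498 RPKM, and the summed RPKM of the pan-immune markers was 0.613 to 1.22 in NS and 0.771 to 1.38 in 5dw. Summed T cell markers were at 4.16 to 35.7 RPKM in NS and 59.1 to 107 RPKM in 5dw, nearly all of it *Cd3e*, while *Cd3d* reached at most 0.643 RPKM, and the part of such cells in the wounding differences below was not tested. Keratinocyte transcripts were in every library, with *Krt14* at 192 to 493 RPKM in NS and 57.8 to 528 RPKM in 5dw. *Krt14* was not called between tissues, but 10 of the 14 keratinocyte markers were lower in wounds of each genotype (8 after median-ratio scaling). Among them was *Krt10*, at 297 to 1685 RPKM in NS and 9.29 to 31.9 RPKM in 5dw. Of all tested genes 48.8% were lower in WT wounds and 36.5% in Act wounds. The NS libraries numbered 1 of both genotypes stood apart from the other 4 NS libraries in several genes, *Mmp11* among them, and each test below was repeated without both of them. In such bulk samples fewer cells of a type and less RNA per cell cannot be told apart.

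The genes encode enzymes of different kinds. MMP2 and MMP9 are the gelatinases, MMP3 and MMP10 are stromelysins, and MMP13 is a collagenase. MMP14 is anchored in the cell membrane and, with TIMP2, activates the MMP2 proenzyme. MMP11 and MMP23 carry a furin recognition site and are activated inside the cell, while MMP19 and MMP27 are less studied members. *Mmp3*, *Mmp10*, *Mmp13* and *Mmp27* lie with other MMP genes in a cluster of 10 on chromosome 9, and these 4 showed both directions of change after wounding. Their proximal promoters are shown so that the 3 genes that rose and the 1 that fell can be set side by side. Each line gives bases 100 to 1 upstream of the RefSeq transcription start (GRCm38.p6, + strand), with the AP-1 motif TGAGTCA or its reverse complement TGACTCA in capitals. AP-1 is a dimer of FOS and JUN family proteins.
Mmp3, chr9:7445722-7445821: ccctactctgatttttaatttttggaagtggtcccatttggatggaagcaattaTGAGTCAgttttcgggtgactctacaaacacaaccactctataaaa
Mmp10, chr9:7502242-7502341: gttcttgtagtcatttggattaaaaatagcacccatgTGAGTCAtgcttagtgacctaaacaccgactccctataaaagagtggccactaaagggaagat
Mmp13, chr9:7272414-7272513: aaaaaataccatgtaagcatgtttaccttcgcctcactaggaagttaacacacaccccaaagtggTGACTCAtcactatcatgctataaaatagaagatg
Mmp27, chr9:7571296-7571395: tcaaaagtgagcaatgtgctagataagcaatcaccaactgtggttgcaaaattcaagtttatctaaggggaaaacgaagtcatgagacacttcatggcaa

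The AP-1 motif, searched on both strands, began 46 bases upstream of the start in *Mmp3*, 63 in *Mmp10* and 35 in *Mmp13*, and was not in the window of *Mmp27*. It was in 5.2% of 32851 promoter windows of 250 bases before to 50 bases after a start. The letters TATAAA, found on either strand in 13.6% of windows, were in the windows of the same 3 genes and not in that of *Mmp27*. The letters TGTGGTT or AACCACA, to which RUNX factors bind, were in 5.27% of windows and occurred in *Mmp13*, 119 bases upstream, and in *Mmp27*, 62 bases upstream. None of the 3 motifs was found in the windows of *Mmp11*, *Mmp14* or *Mmp23*. Windows were matched for 7 of the 10 genes, with none for *Mmp2*, *Mmp9* and *Mmp19*. A match describes these letters and not a bound factor.

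In normal skin 3 genes made up most of the MMP message. *Mmp2* had a mean of 612 RPKM in WT NS (rank 58 of all genes), *Mmp14* had 354 RPKM (rank 121) and *Mmp3* had 142 RPKM (rank 289), with no overlap between neighbours in this order. Together they gave 80.8 to 91% of the summed RPKM of the 10 genes across the 11 libraries. *Mmp23* at 42.9 RPKM, *Mmp27* at 39.7 RPKM, *Mmp19* at 35.3 RPKM and *Mmp11* at 26.7 RPKM formed a middle tier, and each overlapped the next in its library values. *Mmp11* owed its place to WT NS replicate 1, without which its mean was 7.01 RPKM. *Mmp13* at 1.44 RPKM, *Mmp9* at 1.27 RPKM and *Mmp10* at 0.695 RPKM were lowest and likewise overlapped, and without replicate 1 *Mmp9* was the lowest of all, at 0.166 RPKM. The order in Act NS began with the same 3 genes, at 569 RPKM for *Mmp2*, 341 RPKM for *Mmp14* and 183 RPKM for *Mmp3*, but there the *Mmp3* libraries overlapped those of *Mmp11*.

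**Figure D1:**
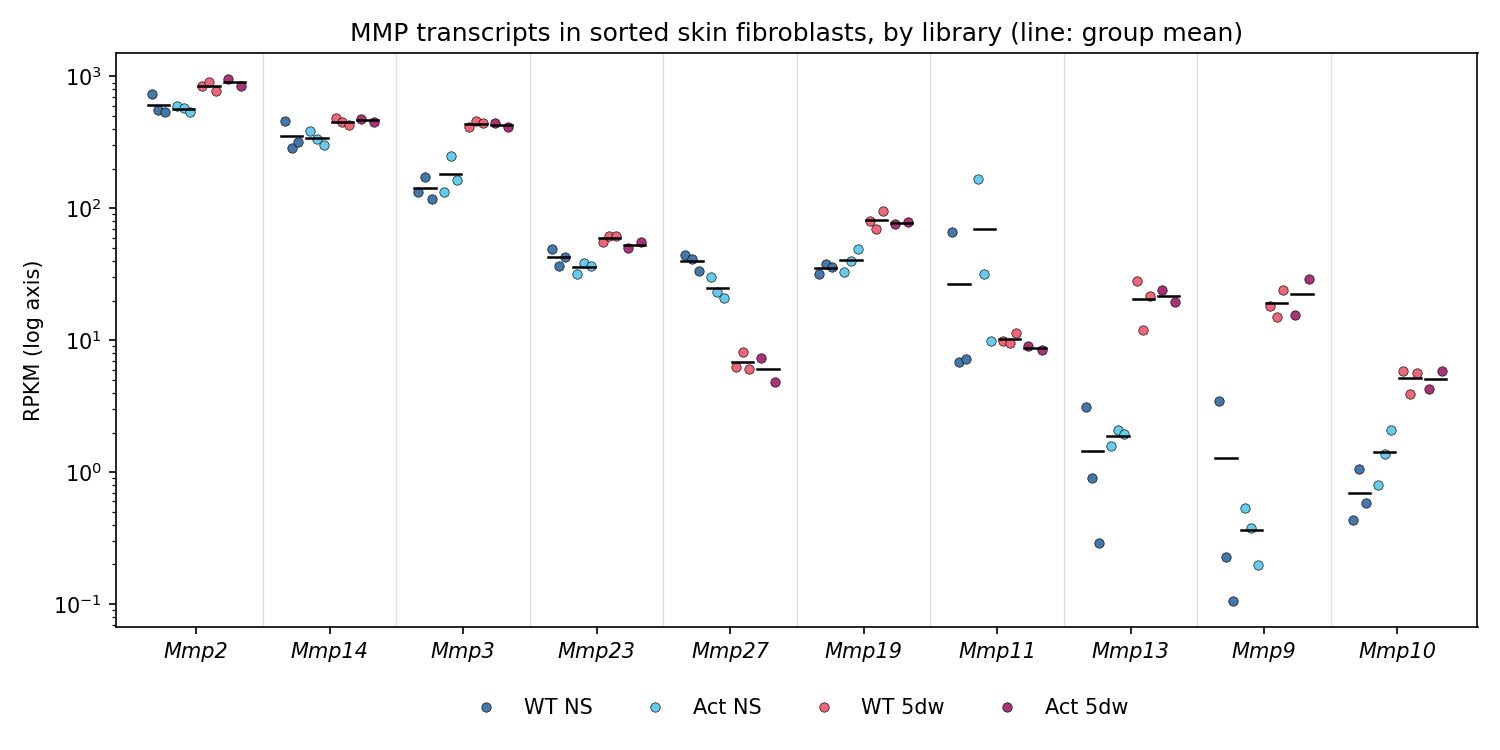
RPKM of the 10 MMP genes in each library on a log axis, ordered by the mean in WT NS. Points are libraries (3 each of WT NS, Act NS and WT 5dw, 2 of Act 5dw) and lines are group means. *Mmp9* rose from at most 3.48 RPKM in NS to at least 15 RPKM in 5dw, while *Mmp27* fell from at least 21.1 RPKM to at most 8.09 RPKM.

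In 5-day wounds the levels of the family lay closer together. The highest mean was 881 times the lowest in WT NS and 163 times in WT 5dw, and 1548 times in Act NS and 178 times in Act 5dw. Without the library numbered 1 these ratios were 3307 in WT NS and 1947 in Act NS, with *Mmp9* as the lowest gene. *Mmp2* still led, at 840 RPKM in WT 5dw (rank 32), followed by *Mmp14* at 454 RPKM and *Mmp3* at 437 RPKM, whose libraries overlapped in WT. *Mmp19* at 82 RPKM now lay above *Mmp23* at 59.7 RPKM. *Mmp13* at 20.5 RPKM and *Mmp9* at 19.1 RPKM overlapped and had passed *Mmp11* at 10.3 RPKM and *Mmp27* at 6.81 RPKM. *Mmp10* at 5.14 RPKM had the lowest mean, as it had over all WT NS libraries. *Mmp9* had moved from rank 10603 in WT NS to rank 1652 in WT 5dw, and its rank in WT NS was 15170 without replicate 1. The share of *Mmp3* in the summed RPKM in WT mice was 11.6% ± 3.32 (SD, n = 3) before injury and 22.6% ± 1.38 (SD, n = 3) in wounds.

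The first question was which MMP genes differed between wound and normal skin fibroblasts of WT mice. Values were compared as log2(RPKM + 0.5) with limma across the 11979 genes that reached 1 RPKM in at least 2 libraries, and a gene was called at a Benjamini-Hochberg adjusted p under 0.05. Of the 10 genes, 7 were higher in WT 5dw, 1 was lower and 2 were not called. Of all tested genes 9.45% were called higher and 48.8% lower, 58.3% in all. The median log2FC was 0.84 over the 10 genes and -0.40 over all tested genes. After scaling by median ratios, which moved the median of all genes to 0.00, 2684 genes were higher and 2655 lower, in place of 1132 and 5846, and the MMP genes were 8 higher and 1 lower. All 10 genes reached the filter, 9 of them in both tissues, and *Mmp9* through the 5dw libraries alone, so its presence among tested genes already implied a difference.

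The gelatinase gene *Mmp9* (chr2:164940780-164955850, GRCm38, as for all positions below) had the largest difference of the 10. It stood at 3.48, 0.227 and 0.105 RPKM in the 3 WT NS libraries and at 18.2, 15 and 24.1 RPKM in the 3 WT 5dw libraries. Every wound library was thus above every NS library, and WT NS replicate 1 was set apart from the other NS libraries, whose values rested on 15 and 11 reads. The log2FC was 4.00 ± 0.57 (SE), with an adjusted p of 0.000247 by limma, and became 4.86 without WT NS replicate 1. As the pseudocount of 0.5 shrinks the change of such low genes, read numbers recovered from RPKM were also fitted with limma-voom, which gave a log2FC of 5.93, and it gave 3.46 in place of 2.26 for *Mmp10* and 4.94 in place of 3.64 for *Mmp13*.

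Neutrophils are a known source of MMP9, and the sum of their markers also differed between tissues. The summed RPKM of the neutrophil markers was 0.51 to 1.43 in NS and 3.17 to 22 in 5dw, highest in WT 5dw replicate 3. That library also had the highest keratinocyte sum in 5dw, at 1499 RPKM against 171 to 458 RPKM in the others. The part of keratinocyte RNA in the neutrophil sum was not tested. Of the 10 neutrophil markers 2 reached the filter, of which *S100a9* was called higher in WT 5dw. *S100a9* carried most of the sum in 5dw, and stood at 0 to 0.398 RPKM in NS and 1.87 to 16.2 RPKM in 5dw, and it reached the filter through the wound libraries alone. The defining marker *Ly6g* was at 0 in every library except WT 5dw replicate 2, which had 0.0548 RPKM, and *Csf3r* reached at most 0.0945 RPKM. Summed macrophage markers were 12.1 to 19.7 RPKM in NS and 19.5 to 28.3 RPKM in 5dw, and 3 of the 10 reached the filter, of which 2 were higher in WT 5dw. *Cd14* carried most of the rise, at 2.79 to 3.67 RPKM in NS and 10.3 to 16.3 RPKM in 5dw. *Cd68* went the other way, at 6.16 to 12 RPKM and 4.69 to 6.31 RPKM. It was called lower in Act mice (log2FC -0.72), though not after median-ratio scaling. *Adgre1* was at 0.0311 to 0.0895 RPKM in NS and 0.0477 to 0.119 RPKM in 5dw. The part of these cells in the *Mmp9* values was not tested.

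*Mmp13*, the collagenase gene (chr9:7272514-7283331), stood at 3.14, 0.902 and 0.289 RPKM in WT NS and at 28.1, 11.9 and 21.6 RPKM in WT 5dw. The 2 groups did not overlap, although the WT NS libraries spread widely. The log2FC was 3.64 ± 0.46 (SE) with an adjusted p of 0.000115, and 4.24 without WT NS replicate 1.

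Both stromelysin genes were higher in wounds. *Mmp3* (chr9:7445822-7455975) stood at 134, 174 and 117 RPKM in WT NS and at 411, 456 and 445 RPKM in WT 5dw, so that even the lowest wound library was far above the highest NS library. Its log2FC was 1.64 ± 0.22 (SE), with an adjusted p of 0.000173. *Mmp10* (chr9:7502352-7510240) stood at 0.438, 1.06 and 0.587 RPKM in WT NS and at 5.81, 3.93 and 5.68 RPKM in WT 5dw, with a log2FC of 2.26 ± 0.27 (SE) and an adjusted p of 7.66e-05. *Mmp10* was at a small fraction of the level of *Mmp3* in both tissues. The transcripts of the 2 genes share sequence, as 14.6% of the 31-base words of *Mmp3* occur in other genes, mostly *Mmp10*, and 11.9% of those of *Mmp10*, mostly *Mmp3*, so that some *Mmp10* reads may have come from *Mmp3*.

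*Mmp19* (chr10:128790910-128800824) stood at 32, 38 and 36 RPKM in WT NS and at 80.2, 69.6 and 96.3 RPKM in WT 5dw. Its log2FC was 1.19 ± 0.17 (SE) with an adjusted p of 0.000199, and the groups were far apart relative to their spread. The gene overlaps *Tmem198b* by 789 bases on the opposite strand and lies within the antisense gene *Gm47093*, 26.7% of its 31-base words occur in other genes, mostly *Tmem198b*, and no source used here says whether reads were counted by strand.

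The small differences were those of *Mmp23*, *Mmp2* and *Mmp14*. *Mmp23* (chr4:155650655-155653384) was at 49.3, 36.6 and 42.9 RPKM in WT NS and 56.1, 61.3 and 61.5 RPKM in WT 5dw, a log2FC of 0.48 ± 0.14 (SE) with an adjusted p of 0.0117. *Mmp2* (chr8:92827291-92853420) was at 739, 560 and 537 RPKM in WT NS and 845, 901 and 774 RPKM in WT 5dw, a log2FC of 0.47 ± 0.15 (SE) with an adjusted p of 0.0208. *Mmp14* (chr14:54431612-54445364) was at 456, 286 and 320 RPKM in WT NS and 487, 450 and 426 RPKM in WT 5dw, and only in this gene of the trio did the groups overlap, through WT NS replicate 1. The log2FC of *Mmp14* was 0.39 ± 0.18 (SE) with an adjusted p of 0.0832. *Mmp23* was called in WT mice under all 23 alternative settings. *Mmp2* was not called without WT NS replicate 2, WT NS replicate 3, WT 5dw replicate 1 or WT 5dw replicate 2, at adjusted p values of 0.0581 to 0.0826. *Mmp14* was called under 6 of the 23 settings. Its log2FC was 0.58 without WT NS replicate 1 (adjusted p = 0.00966) and without both NS libraries numbered 1 (adjusted p = 0.00415). It was 0.84 after median-ratio scaling (adjusted p = 0.00672) and 0.85 by limma-voom (adjusted p = 0.00691). With weights per library it was 0.39 (adjusted p = 0.0412), as with the replicate number as a block in the fit (adjusted p = 0.0436).

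*Mmp27* (chr9:7571396-7581885) was the one gene of the 10 that fell. It stood at 44.3, 41.2 and 33.8 RPKM in WT NS and at 6.3, 8.09 and 6.04 RPKM in WT 5dw, with a wide gap between the groups. The log2FC was -2.46 ± 0.19 (SE), with an adjusted p of 5.66e-06. In the same fit *Mmp28*, the only MMP gene outside the 10 to reach the filter, was also lower, with 0.886 to 1.09 RPKM in WT NS, 0.0585 to 0.14 RPKM in WT 5dw and a log2FC of -1.32 ± 0.16 (SE) at an adjusted p of 7.66e-05. *Mmp28* encodes epilysin, which is made by keratinocytes among other cells. Summed keratinocyte markers were 1209 to 4562 RPKM in NS and 171 to 1499 RPKM in 5dw. Of 14 markers 10 were lower and 1 higher in WT 5dw (8 and 1 after median-ratio scaling). *Mmp28* reached the filter through NS libraries alone, which already implied a difference, and the part of keratinocyte RNA in its values was not tested.

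*Mmp11* (chr10:75923222-75936496) was not called between tissues and differed widely between NS libraries. The WT NS libraries had 66.2, 6.86 and 7.16 RPKM and the Act NS libraries 166, 31.7 and 9.92 RPKM, against 9.96, 9.53 and 11.3 RPKM in WT 5dw and 9.03 and 8.5 RPKM in Act 5dw. Replicate 1 was the highest in both NS groups, while the 5 wound libraries lay within 8.5 to 11.3 RPKM. In WT mice the log2FC was -0.53 ± 0.95 (SE), with an adjusted p of 0.646, and it was 0.52 without WT NS replicate 1. *Mmp11* overlaps *Chchd10* on the opposite strand by 3367 bases, and *Chchd10* showed the same 2 high libraries, at 13.3 RPKM in WT NS replicate 1 and 26.3 RPKM in Act NS replicate 1 against 0.927 to 2.87 RPKM in the other NS libraries. Of the 31-base words of *Mmp11*, 4.46% occur in other genes, mostly *Chchd10*.

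**Figure D2:**
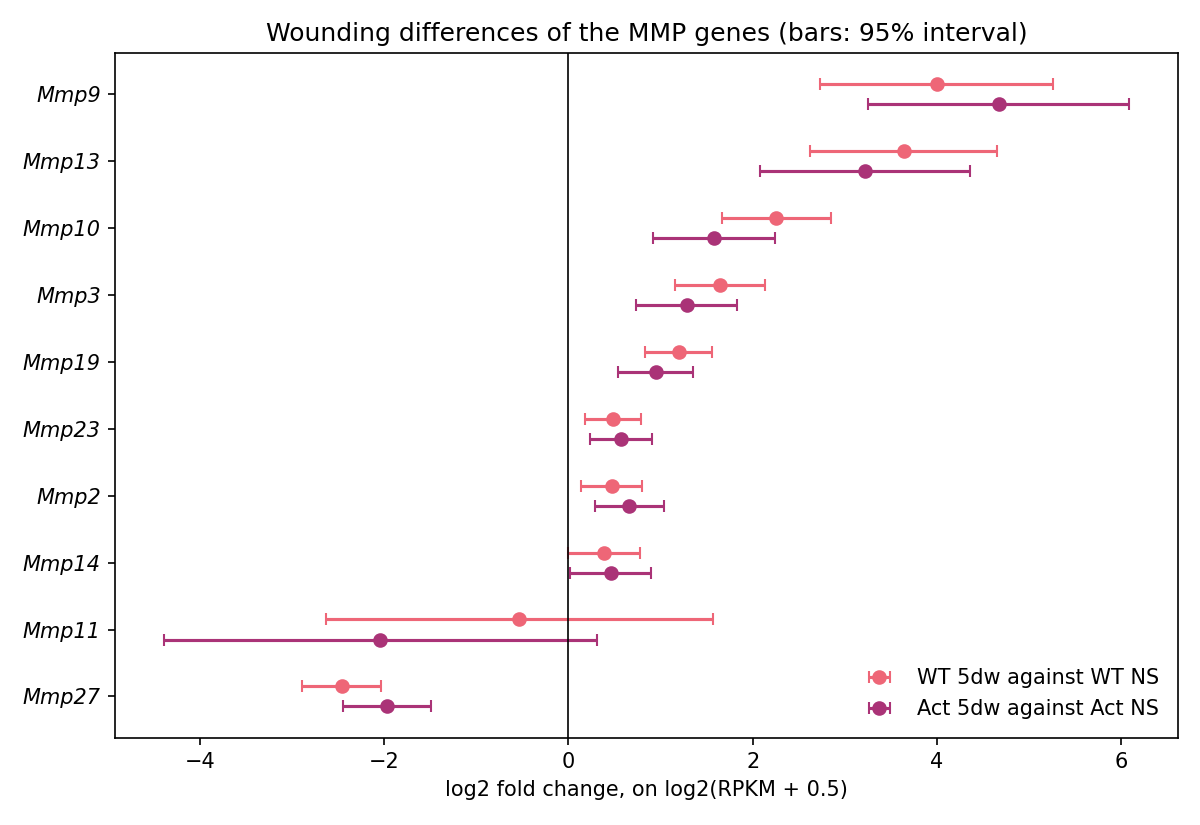
Difference between 5dw and NS in WT mice and in Act mice for each MMP gene, as log2 fold change on log2(RPKM + 0.5) with its 95% interval. *Mmp9* (4.00 in WT, 4.67 in Act) and *Mmp13* (3.64 and 3.22) lie farthest to the right and *Mmp27* (-2.46 and -1.97) farthest to the left among the called genes, and the intervals of *Mmp11* are the widest.

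Wounding was then examined in Act mice. The 10 genes again gave 7 higher, 1 lower and 2 not called, against 9.04% of all tested genes higher and 36.5% lower, 45.6% in all. The median log2FC was 0.80 over the 10 genes and -0.31 over all tested genes. With median-ratio scaling 2384 genes were higher and 2492 lower, in place of 1083 and 4376, and the MMP genes were 8 higher and 1 lower. The WT and Act contrasts share no library, but both rest on one estimate of the spread.

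*Mmp9* stood at 0.531, 0.375 and 0.197 RPKM in Act NS and at 15.6 and 29 RPKM in Act 5dw. The log2FC was 4.67 ± 0.64 (SE), with an adjusted p of 0.000293. *Mmp13* stood at 1.59, 2.08 and 1.95 RPKM in Act NS and at 24 and 19.4 RPKM in Act 5dw, with a log2FC of 3.22 ± 0.52 (SE) and an adjusted p of 0.000707. The Act NS libraries were closer to each other in *Mmp13* than the WT NS libraries were. *Mmp10* had 0.802, 1.38 and 2.08 RPKM in Act NS and 4.25 and 5.9 RPKM in Act 5dw, a log2FC of 1.58 ± 0.30 (SE) at an adjusted p of 0.00184. *Mmp3* had 132, 251 and 165 RPKM in Act NS and 443 and 416 RPKM in Act 5dw, a log2FC of 1.28 ± 0.25 (SE) at an adjusted p of 0.00208. In each of these 4 genes both wound libraries lay above all 3 Act NS libraries.

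*Mmp19* had 33.2, 39.6 and 48.9 RPKM in Act NS and 76.1 and 79.2 RPKM in Act 5dw, with a log2FC of 0.94 ± 0.19 (SE). *Mmp2* had 594, 573 and 540 RPKM against 955 and 847 RPKM, with a log2FC of 0.66 ± 0.17 (SE). *Mmp23* had 31.8, 38.5 and 36.9 RPKM against 50.5 and 55.9 RPKM, with a log2FC of 0.57 ± 0.15 (SE). These 3 were called, at adjusted p values of 0.00219, 0.0089 and 0.0113. *Mmp2* was not called without Act 5dw replicate 1 (adjusted p = 0.071), nor *Mmp23* without Act 5dw replicate 3 (adjusted p = 0.0879). *Mmp14* had 386, 335 and 302 RPKM in Act NS and 477 and 454 RPKM in Act 5dw, which did not overlap, with a log2FC of 0.46 ± 0.20 (SE) and an adjusted p of 0.0819. *Mmp14* was called under 6 of the 23 settings. These were median-ratio scaling (0.81, adjusted p = 0.0155), limma-voom (0.82, adjusted p = 0.0172) and weights per library (0.49, adjusted p = 0.0224). It was also called without WT NS replicate 1 (adjusted p = 0.0322), without Act NS replicate 1 (adjusted p = 0.0492) and without both (adjusted p = 0.00985).

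*Mmp27* fell in Act mice too, from 30.4, 23.2 and 21.1 RPKM in Act NS to 7.29 and 4.79 RPKM in Act 5dw. The log2FC was -1.97 ± 0.22 (SE), with an adjusted p of 7.11e-05. *Mmp11* had a log2FC of -2.04 ± 1.07 (SE) and an adjusted p of 0.14, with -0.98 without Act NS replicate 1 -2.98 (adjusted p = 0.0345) without Act NS replicate 3 and -2.28 (adjusted p = 0.0438) with the replicate block. Within WT mice the libraries of the 2 tissues did not overlap in 7 genes that were higher in wounds and 1 that was lower, against 11.4% and 55% of tested genes, and within Act mice in 8 and 2, against 14.4% and 49.8%. The 2 lower genes in Act mice were *Mmp27* and *Mmp11*. Over both genotypes, all 5 wound libraries lay above all 6 NS libraries in *Mmp2*, *Mmp3*, *Mmp9*, *Mmp10*, *Mmp13*, *Mmp19* and *Mmp23* and below them in *Mmp27*. Among all tested genes 8.45% parted upwards in this way and 38.9% downwards.

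Whether activin overexpression altered MMP transcripts was asked in each tissue. Between Act NS and WT NS, 0 of the 10 genes were called by limma, 2 had an unadjusted p under 0.05, and limma-voom called 0 as well. Of all tested genes 0.0167% were called, 0.00835% in each direction. *Mmp27* had the smaller p of these 2, with all 3 Act NS libraries (30.4, 23.2 and 21.1 RPKM) below all 3 WT NS libraries (44.3, 41.2 and 33.8 RPKM). Its log2FC was -0.67 ± 0.19 (SE), with an adjusted p of 0.679, and between these groups 7.98% of tested genes parted downwards without overlap and 0.993% upwards. *Mmp10* had a log2FC of 0.66 with a 95% interval of 0.07 to 1.25 and an adjusted p of 0.688, and its groups overlapped. For *Mmp2* the interval ran from -0.42 to 0.24, for *Mmp14* from -0.43 to 0.36 and for *Mmp3* from -0.16 to 0.83. For *Mmp11*, with a log2FC of 1.30, it ran from -0.81 to 3.40, so that differences of several-fold were not detectable in this gene. With the replicate block its SE went from 0.95 to 0.72 and its adjusted p was 0.594. *Mmp11*, *Mmp10* and *Mmp19* were higher in Act NS, and *Mmp27* lower, in each of the 3 pairs of same-numbered libraries, and the block called 0 of the 10 genes.

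**Figure D3:**
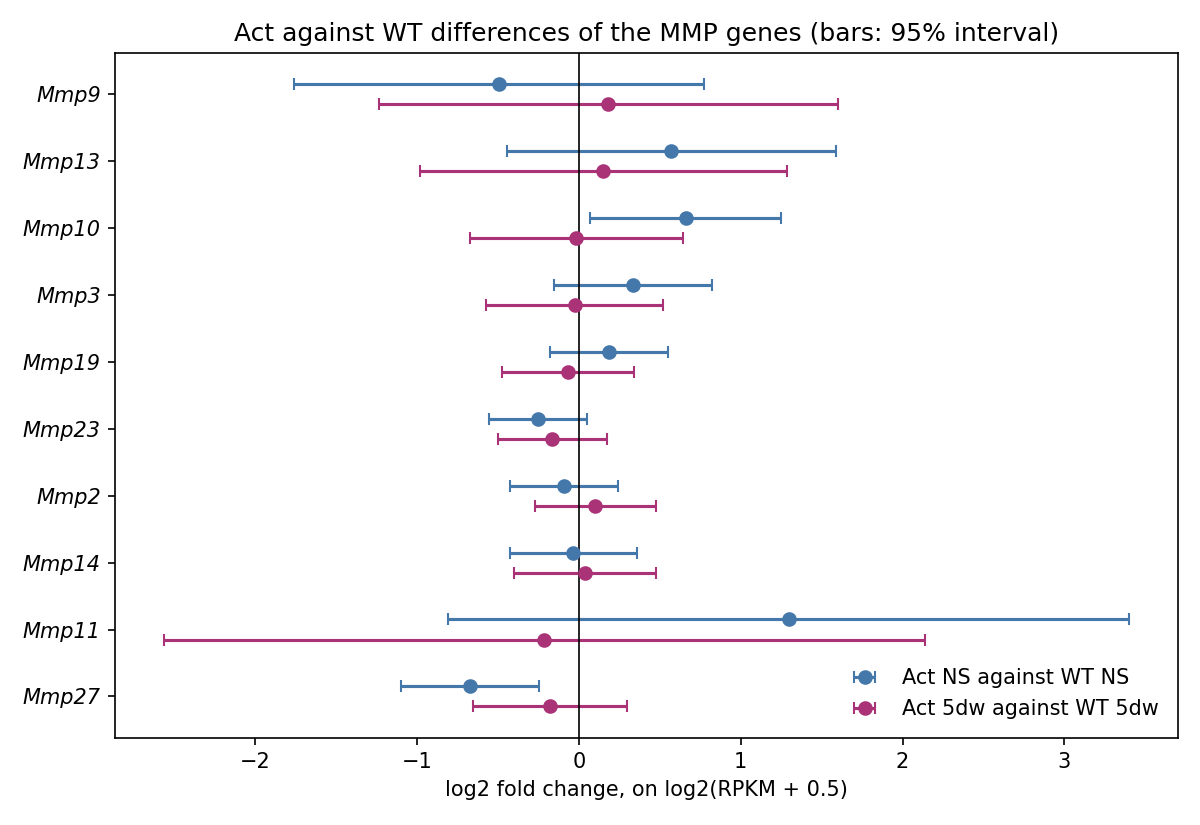
Difference between Act and WT in NS and in 5dw for each MMP gene, as log2 fold change on log2(RPKM + 0.5) with its 95% interval. Every interval for 5dw includes 0, and in NS those of *Mmp10* (0.07 to 1.25) and *Mmp27* (-1.10 to -0.25) do not, with adjusted p values of 0.688 and 0.679.

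The genotypes were next compared in 5-day wounds. By limma 0 of the 10 genes were called between Act 5dw and WT 5dw, 0 had an unadjusted p under 0.05, and limma-voom called 0. Of all tested genes 0.0334% were called, 0.00835% higher and 0.025% lower. The log2FC ran from -0.21 for *Mmp11* to 0.18 for *Mmp9*. The intervals were -0.27 to 0.47 for *Mmp2*, -0.40 to 0.48 for *Mmp14* and -0.47 to 0.34 for *Mmp19*, and they were wider for *Mmp9*, at -1.23 to 1.60, and *Mmp13*, at -0.98 to 1.29. *Mmp11* and *Mmp23* were lower in both Act 5dw libraries than in all 3 WT 5dw libraries, as were 15.2% of tested genes, and none of the 10 was higher in this way, as were 7.87%. The *Mmp23* libraries were at 50.5 and 55.9 RPKM in Act 5dw and 56.1, 61.3 and 61.5 RPKM in WT 5dw, with a log2FC of -0.17.

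The test of the difference between the 2 wounding responses called 0 of the 10 genes by limma, and 0% of all 11979, with 0 of the 10 and 400 of all at an unadjusted p under 0.05. The largest difference was that of *Mmp11*, at -1.51 for Act minus WT with a 95% interval of -4.67 to 1.64. The wounding response of *Mmp10* was 0.68 lower in Act than in WT mice on the log2 scale, that of *Mmp9* was 0.68 higher and that of *Mmp27* 0.49 higher, each with an adjusted p of 0.999. For *Mmp9* the sign of this difference depended on WT NS replicate 1, without which it was -0.19. The wounding and genotype comparisons share libraries, so their values stand side by side and not as separate evidence.

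The 4 genes on chromosome 9 lie among 10 MMP genes within 427 kilobases (9, 7272514 to 7699585, GRCm38). In order along the chromosome these are *Mmp13*, *Mmp12*, *Mmp1b*, *Mmp3*, *Mmp1a*, *Mmp10*, *Mmp8*, *Mmp27*, *Mmp20* and *Mmp7*. Mean RPKM over all NS and all 5dw libraries was 1.66 and 21 for *Mmp13*, 162 and 434 for *Mmp3*, and 1.06 and 5.11 for *Mmp10*. *Mmp27*, with 32.3 and 6.5 RPKM, went the other way, although *Mmp8*, a collagenase gene known from neutrophils, starts upstream of it and ends only 2910 bases before it. *Mmp8* was at 0 to 0.0681 RPKM in NS and 0.111 to 0.347 RPKM in 5dw. *Mmp12*, *Mmp1b* and *Mmp1a* stayed under 1 RPKM in every library, *Mmp20* was listed at 0 throughout and *Mmp7* was listed above 0 in 2 wound libraries. Levels within the cluster thus ran from 0 RPKM to the level of *Mmp3*. The AP-1 letters stood in a window of 7 of the 10 cluster genes and in none of *Mmp27*, *Mmp8* and *Mmp20*, and they were also missing from the windows of *Mmp23*, which was higher in wounds. The TATA box letters were in a window of 9 of the 10, all but *Mmp27*, but their positions differed. They began 7 bases upstream of the start in *Mmp3*, 3 in *Mmp8* and at position 4, past the start, in *Mmp12*. In the other genes they began 16 to 58 bases upstream, with a further match 123 bases upstream in *Mmp7*. *Mmp12* and *Mmp7* each also had a window without these letters.

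**Figure D4:**
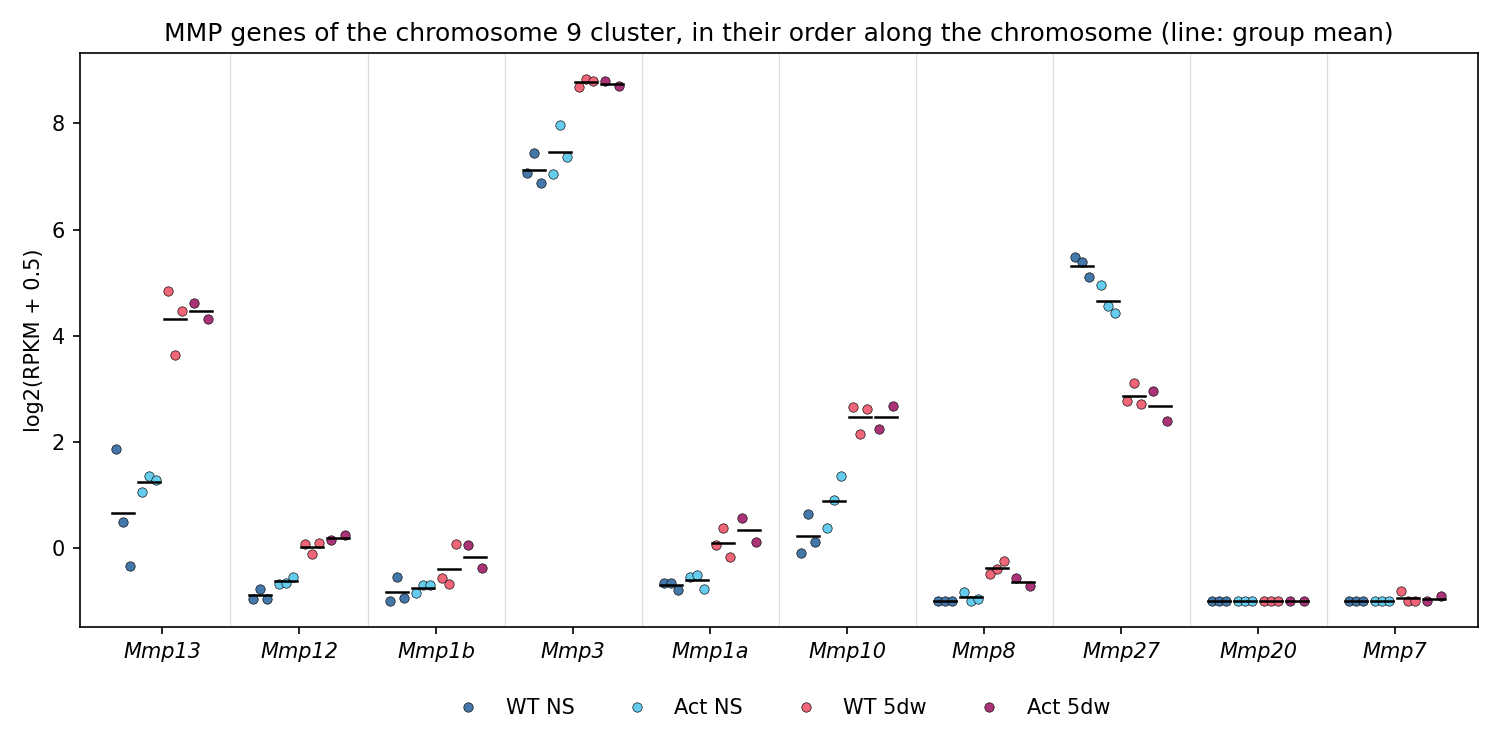
log2(RPKM + 0.5) of the 10 MMP genes of the chromosome 9 cluster in each library, in their order along the chromosome, with lines for group means. *Mmp13*, *Mmp3* and *Mmp10* are higher in all 5 wound libraries, *Mmp27* is lower, and *Mmp20* is at 0 RPKM in every library.

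Inhibitor genes differed between wound and normal skin fibroblasts in both directions. *Timp1* stood at 32.9, 64.9 and 35.3 RPKM in WT NS and 533, 684 and 809 RPKM in WT 5dw, a log2FC of 3.96 ± 0.34 (SE) at an adjusted p of 1.01e-05. *Timp2*, which also acts with MMP14 in the activation of MMP2, stood at 1001, 813 and 766 RPKM in WT NS and at 245 to 346 RPKM in the WT 5dw libraries, a log2FC of -1.57 ± 0.18 (SE) at an adjusted p of 7.09e-05. One inhibitor gene thus rose far above its NS range while another fell well below it. *Timp3*, whose product binds to the matrix, fell by 2.71 and *Reck*, the membrane-anchored inhibitor, by 2.35 on the log2 scale, at adjusted p values of 7.67e-05 and 1.94e-06. *A2m*, a broad protease trap, was at 0.0544 to 0.113 RPKM in WT NS and 2.23 to 3.95 RPKM in WT 5dw. *A2m* was called but reached the filter through the 5dw libraries alone, which already implied a difference. Of the 5 inhibitor genes tested, 2 were thus higher and 3 lower in WT mice, where 9.45% of all tested genes were higher and 48.8% lower. The same counts held in Act mice, where these shares were 9.04% and 36.5%. *Timp4* reached at most 0.0091 RPKM.

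*Timp1* gave 2.88 to 6.98% of the summed RPKM of the 4 *Timp* genes in NS and 60.1 to 80.1% in 5dw, while *Timp2* gave 73.8 to 87.8% and 17.9 to 36.5%. The summed *Timp* RPKM itself was 1072 ± 58.4 (SD, n = 3) in unwounded WT skin and 990 ± 134 (SD, n = 3) in WT wounds, which overlapped. In Act mice it was 899 ± 131 (SD, n = 3) before injury and 1166 ± 370 (SD, n = 2) in wounds, which overlapped too. The summed RPKM of the 10 MMP genes was 1256 ± 236 (SD, n = 3) for WT and 1267 ± 127 (SD, n = 3) for Act mice in NS, and in 5dw it was 1935 ± 58.1 (SD, n = 3) for WT and 1991 ± 101 (SD, n = 2) for Act mice. The ratio of the MMP sum to the *Timp* sum was 1.17 ± 0.153 and 1.43 ± 0.313 in NS and 1.98 ± 0.308 and 1.81 ± 0.661 in 5dw, again for WT and Act mice. The 2 Act 5dw libraries had ratios of 2.28 and 1.34, which parted by their *Timp1* values of 544 and 1143 RPKM. Transcript ratios do not measure protease activity.

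**Figure D5:**
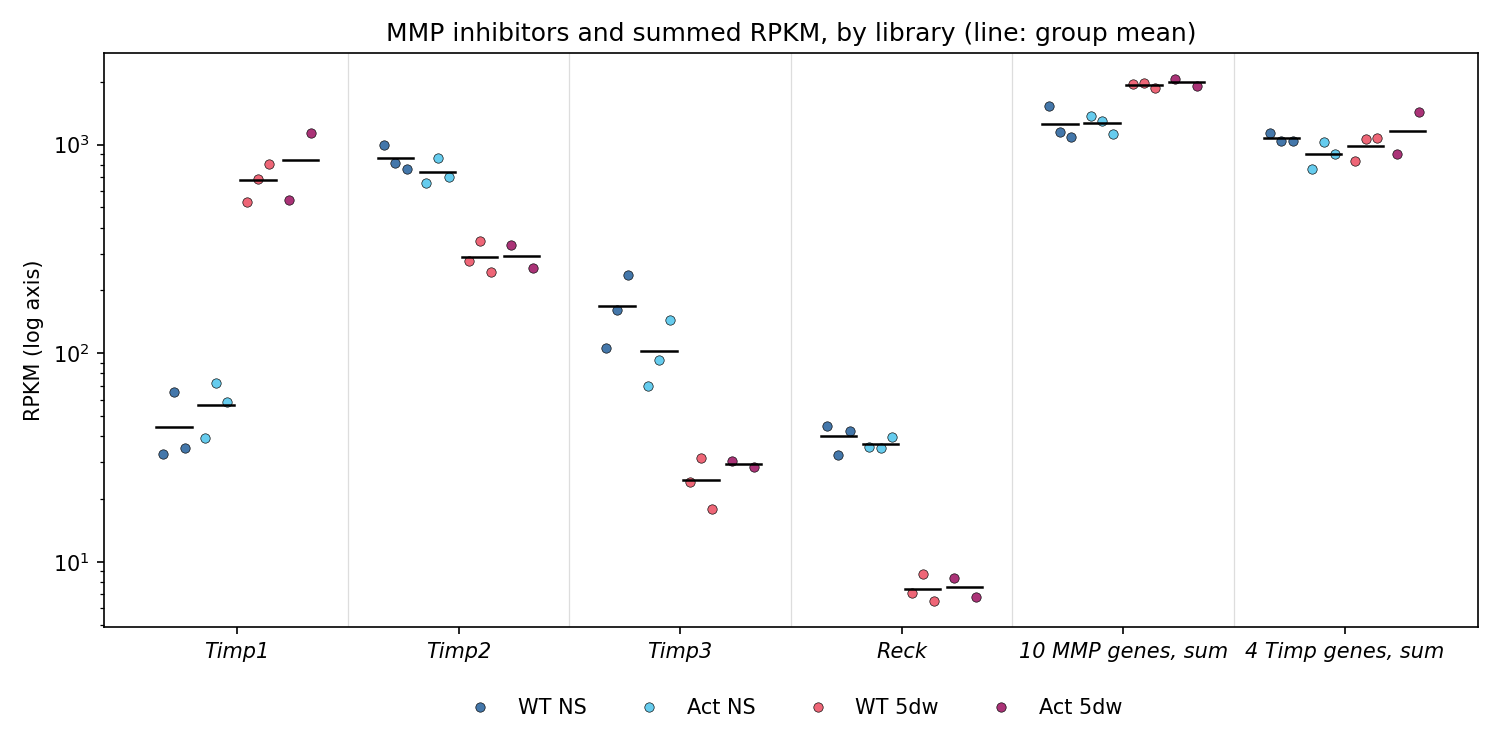
RPKM of *Timp1*, *Timp2*, *Timp3* and *Reck* and the summed RPKM of the 10 MMP genes and of the 4 *Timp* genes in each library on a log axis, with lines for group means. *Timp1* is at most 71.8 RPKM in NS and at least 533 RPKM in 5dw, and *Timp2* is at least 658 RPKM in NS and at most 346 RPKM in 5dw.

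Genes that act on MMP proenzymes were split. Of 8 tested activator genes, 4 rose and 2 fell with wounding in WT mice, and 3 rose and 1 fell in Act mice. The shares over all tested genes given for the inhibitors are the background of this list and of those that follow. After median-ratio scaling 4 activator genes rose and 1 fell in each genotype. *Pcsk5*, a proprotein convertase, was at 6.71 to 10.3 RPKM in WT NS and 45 to 61.5 RPKM in WT 5dw, and its log2FC was 2.51 in WT and 2.65 in Act mice. *Pcsk6*, a related convertase, had -2.05 in WT mice and was also lower in Act mice. *Plat*, which encodes tissue plasminogen activator, had 1.42 and 1.57. The 3 genes passed the limma test in both genotypes, with adjusted p values of 8.13e-06 to 0.00605.

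At the cell surface, 5 of 11 tested docking and induction genes rose and 3 fell with wounding in WT mice, and 4 rose and 2 fell in Act mice. After median-ratio scaling the counts were 5 and 2 in WT mice and 5 and 1 in Act mice. *Lcn2*, whose product forms a complex with MMP9, was at 0.184 to 0.282 RPKM in all 6 NS libraries and 5.48 to 21.9 RPKM in 5dw, with a log2FC of 4.32 in WT (adjusted p = 1.21e-05), and it reached the filter through the wound libraries alone, which already implied a difference. *Cd44*, a hyaluronan receptor that can hold MMP9 at the membrane, had 1.80 (adjusted p = 0.00123). *Ddr1*, a collagen receptor, had -1.25 (adjusted p = 0.0032), at 5.21 to 13.3 RPKM in NS and 2 to 3.15 RPKM in 5dw. The keratinocyte markers also fell in sum, and the part of keratinocyte RNA in the *Ddr1* values was not tested.

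Of 16 tested transcription factor genes with known sites in MMP promoters, 2 rose and 8 fell with wounding in WT mice, and 2 rose and 6 fell in Act mice, shares close to those over all tested genes. Both that rose were RUNX genes. *Runx1* was at 3.55 to 5.88 RPKM in WT NS and 13.3 to 14.6 RPKM in WT 5dw (log2FC 1.44, adjusted p = 5.12e-05), and *Runx2* at 1.22 to 1.37 and 3.59 to 5.04 RPKM (1.41, adjusted p = 4.42e-05). *Fosl2*, which encodes an AP-1 subunit, fell by 1.41 on the log2 scale (adjusted p = 1.39e-05). Of other FOS and JUN family genes, *Fosl1* (-0.99) and *Junb* (-0.73) were lower in WT wounds, but neither was called after median-ratio scaling. *Fos* (-0.07), *Fosb* (0.06), *Jun* (-0.13) and *Jund* (-0.32) were not called. The counts of this list depended on scaling: after median-ratio scaling 4 rose and 3 fell in WT mice, and 3 rose and 5 fell in Act mice. AP-1 transcripts also respond to tissue digestion, and 5 of 12 dissociation-response genes fell with wounding in WT mice and 2 in Act mice, while after median-ratio scaling 1 rose and 0 fell in WT mice and 2 rose and 0 fell in Act mice. Their sums were 6471 to 10384 RPKM in NS and 5508 to 7049 RPKM in 5dw. Their part in the values was not tested.

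Among 10 genes of collagen uptake and lysosomal breakdown, 4 rose and 3 fell with wounding in WT mice, and 3 rose and 2 fell in Act mice. After median-ratio scaling the counts were 5 and 2 in WT mice and 3 and 1 in Act mice. *Ctss*, one of those that rose in both genotypes, reached the filter through wound libraries alone, which already implied a difference. *Lgmn*, which encodes the lysosomal protease legumain, had a log2FC of 1.26 in WT 5dw (adjusted p = 3.38e-05). *Dpp4*, a surface peptidase, had -1.96 (adjusted p = 0.000979) and *Cd36*, a scavenger receptor, had -1.24 (adjusted p = 0.00655), which was not called after quantile normalization (-0.71, adjusted p = 0.0937). Between genotypes 0 genes of these 4 lists were called by limma in either tissue, and 0 had an unadjusted p under 0.05.

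Each MMP gene was last compared with all tested genes outside the family by the root mean square difference of log2(RPKM + 0.5) over the 11 libraries, after centring each gene on its own mean. This describes likeness and carries no test. The nearest genes to *Mmp9* were *Spp1*, at a difference of 0.64, *Prss35* and *Col12a1*, and the nearest to *Mmp13* were *Wisp1*, at 0.46, *Sorcs2* and *Adam12*. *Wisp1* had 1.25 to 2.68 RPKM in NS and 16.1 to 23.2 RPKM in 5dw. *Mmp3* lay nearest to *Ccl8*, at 0.13, then *Pecam1* and *Meg3*, and *Mmp10* nearest to *Bdkrb1*, at 0.14, then *S1pr1* and *Slc39a14*. *Mmp19* was nearest to *D8Ertd82e*, *Acp5* and *Ndrg1*, at 0.13 to 0.16. For *Mmp27* the nearest were *Qpct*, at 0.23, and *Enpp5*, and *Qpct* had 47.3 to 78 RPKM in NS and 8.17 to 14.8 RPKM in 5dw.

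The genes with small changes lay nearest to *Gng11* for *Mmp2*, *Prickle1* for *Mmp14* and *Creb3* for *Mmp23*, at 0.09 to 0.11. Next to *Mmp2* in order were *Prr5l* and *Mettl21a*, next to *Mmp14* were *Slc17a5* and *Jade1*, and next to *Mmp23* were *Kctd5* and *Ap1s1*. Within the family *Mmp2* and *Mmp14* were nearest to each other, at 0.12. *Mmp9* and *Mmp13* were also nearest to each other, but at 0.74. *Mmp11* had the poorest matches, with *Chchd10* at 0.65, *Mamdc2* at 0.77 and *Plxdc1* at 0.83, and all 3 were highest in the NS libraries numbered 1.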

How the data were processed

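RNA-seq of sorted mouse skin fibroblasts was analysed in 11 libraries of 4 groups. With CLC Genomics Workbench the authors trimmed and aligned reads (build GRCm38), and they deposited one table of RPKM per gene, leaving out 1 Act 5dw sample after quality control. Pools of 3 mice are the replicates.

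RPKM times annotated transcript length (GENCODE M21) gave whole reads within 0.03 for 80.5 to 81.8% of low values, from which the mapped totals were taken. Gene tests used limma 3.58.1 (R 4.3.3) with an intensity trend on log2(RPKM + 0.5), 4 group means over all 11 libraries, a filter of 1 RPKM in at least 2 libraries and Benjamini-Hochberg adjustment over 11979 genes (two-sided). Adding 0.5 shrinks the fold changes of low genes. The test was checked on simulated data. An exact permutation test could not go below p = 0.1 for 3 libraries against 3 or 2. Other scalings, filters, pseudocounts, limma-voom on recovered reads, a replicate block and left-out libraries were tried. Deviations of same-numbered libraries correlated over genes by 0.33 to 0.55 between WT NS and Act NS and 0.11 to 0.19 between WT NS and WT 5dw. The main fit did not pair libraries, and the numbers entered only the replicate block. Over all groups 12 of 15 same-numbered pairs were over 0.1, and the Act 5dw comparisons had only 2 pairs each. Deviations of the 2 Act 5dw libraries mirror each other, with correlations of -0.1238 and 0.1238 to WT NS replicate 1, so their pairs are not independent. The labels do not say what a number stands for.

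Named were the 10 members, any other MMP gene at the filter, *Timp* genes and *Reck*, up to 3 called genes per further list with the largest WT wounding change, markers, and the 3 nearest profiles of each member, of which 1 is not reported here. Neutrophil and other marker genes beyond these, *Chchd10*, and cluster neighbours were named after their values were seen. The members, lists and tests were chosen with earlier results of these data known. Sequences came from RefSeq (GRCm38.p6).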

Additional observations from a re-analysis of the deposited data

How the results depend on the processing

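Over the 23 alternative settings, the number of MMP genes called per comparison stayed within 1.5 times. The shares of *Mmp2*, *Mmp3* and *Mmp14* and the ratio of the MMP to the *Timp* sum were recomputed with 1 library left out. A mean of 2 or 3 libraries cannot move beyond their SD in this way, so the stability of these values was not tested. In Act 5dw the ratio was 1.34 and 2.28 in the 2 libraries. In Act mice the number called lower went from 1 to 2 with the replicate block and without Act NS replicate 3, through *Mmp11*. The ratio of the highest to the lowest MMP level in WT NS went from 881 to 3307 without replicate 1. *Mmp3*, *Mmp9*, *Mmp10*, *Mmp13*, *Mmp19* and *Mmp27* were called after wounding in both genotypes under all 23. Calls of *Mmp2*, *Mmp14*, *Mmp23* and *Mmp11* depended on settings. Without the filter, *Mmp2* was not called in WT (adjusted p = 0.0953) or Act mice (adjusted p = 0.0522), by limma. In NS the values of *Mmp9* rested on as few as 11 reads.

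The wounding difference of *Mmp11* in WT mice, as log2FC, was 0.52 with both NS libraries numbered 1 left out, and ran from -1.07 to 0.52 with 1 library left out. The other changes of sign were in comparisons with no called MMP gene, and the cause was not tested. For Act NS against WT NS, *Mmp2* was 0.0514 after median-ratio scaling, 0.0401 by limma-voom and 0.0209 without both NS libraries numbered 1, *Mmp14* was 0.11, 0.10 and 0.0699 there and 0.0301 after quantile normalization, and *Mmp9* was 0.24 without both. With 1 library left out they ran from -0.18 to 0.0524, -0.17 to 0.16 and -0.99 to 0.37. For Act 5dw against WT 5dw, *Mmp3* was 0.0162 after median-ratio scaling, 0.0511 after quantile normalization and 0.0098 by limma-voom, *Mmp10* was 0.0227, 0.0267 and 0.0378, and *Mmp19* was 0.0257 after quantile normalization. With 1 library left out, *Mmp3* ran from -0.0710 to 0.0204, *Mmp9* from -0.25 to 0.62, *Mmp10* from -0.23 to 0.20, *Mmp13* from -0.19 to 0.42, *Mmp14* from -0.0069 to 0.09, *Mmp19* from -0.18 to 0.0553 and *Mmp27* from -0.46 to 0.10. For the difference between wounding responses, *Mmp14* was -0.0285 after median-ratio scaling, -0.0275 by limma-voom and -0.0315 without both NS libraries numbered 1, *Mmp23* was -0.0104, -0.0067 and -0.0953, and *Mmp9* was -0.0534 without both. With 1 library left out, *Mmp9* ran from -0.19 to 1.17, *Mmp13* from -1.02 to 0.0849, *Mmp14* from -0.13 to 0.21 and *Mmp23* from -0.0152 to 0.20.

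With the replicate block, 8 MMP genes were called higher and 1 lower in WT mice, *Mmp14* being the gene gained, and 7 higher and 2 lower in Act mice, *Mmp11* being the gene gained, while 0 were called between genotypes. For Act 5dw against WT 5dw *Mmp3* was then 0.12, *Mmp10* 0.0030 and *Mmp14* -0.0128. The block changed no other call of an MMP gene.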

Other observations

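Of the MMP genes outside the 10, 12 were too low for the filter on RPKM and *Mmp28* reached it. In a limma fit without the filter, over 26465 genes, all of these but *Mmp20*, which was at 0 throughout, could be fitted, 12 in all. In WT mice 3 of these 12 differed upwards with wounding and 2 downwards, *Mmp28* among the latter, where 5.67% of all genes were higher and 24.9% lower. *Mmp12*, the macrophage elastase gene, was at 0.0164 to 0.0889 RPKM in WT NS and 0.428 to 0.57 RPKM in WT 5dw, with a log2FC of 0.91 ± 0.09 (SE) and an adjusted p of 0.00015. *Mmp8*, a collagenase gene best known from neutrophils, had a log2FC of 0.63 ± 0.07 (SE) in WT and 0.29 in Act mice, and *Mmp1a* had 0.79 and 0.95. *Mmp15*, a membrane-type MMP gene, was at 0.629 to 1.01 RPKM in WT NS and 0.19 to 0.51 RPKM in WT 5dw, with a log2FC of -0.60. The same 5 genes were called in Act mice in the same directions, where 5.31% of all genes were higher and 17.5% lower.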
